A study of Mus musculus with 8 samples.

Results

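The comparison described here set the right brain hemisphere of sham-operated mice given PACAP38 against that of sham-operated mice given saline, 24 h after surgery. It consists of 2 dye-swapped microarrays, chosen by their titles (Control+Saline against Control+PACAP at 24 h), out of 8 arrays in the series. The other 6 arrays hold the same comparison at 6 h and both time points after permanent middle cerebral artery occlusion (PMCAO), 2 arrays for each. All mice were male C57BL/6J, 8 to 12 weeks old. In the sham operation the external carotid artery was exposed and the wound closed, with no occlusion. Right after surgery 1 pmol PACAP38 in 1 µl, or 1 µl saline, was injected into the cerebral ventricle on the left, so the hemisphere measured was the one opposite the injection. The olfactory bulb and the cerebellum were removed before the hemisphere was ground. RNA of 3 mice per group was pooled, 300 ng from each, and each pool was labelled once with Cy3 and once with Cy5. The titles number the arrays as pooled 1 and pooled 2, while the methods describe a single RNA sample per group that received each dye in turn. The 2 arrays were therefore taken as repeat labellings of the same 2 pools and counted as 1 replicate. Animals cannot be compared with each other, no p-value is given, and every difference below is a difference between these pools.

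PACAP38 (pituitary adenylate cyclase-activating polypeptide) is a neuropeptide of the family that also holds VIP, secretin and glucagon. It binds the receptor PAC1, encoded by Adcyap1r1, and the receptors it shares with VIP, Vipr1 and Vipr2. These receptors couple mainly to adenylyl cyclase, and the cyclic AMP formed activates protein kinase A and the transcription factor CREB, which binds the cyclic AMP response element in promoters. Immediate early genes such as Fos, Egr1 and Nr4a1 are well-known targets of this route in neurons. The sham arrays address what the peptide alone did in the brain without an infarct.

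Values are log2 ratios of the PACAP38 pool over the saline pool, so that a positive value is higher after PACAP38. Array 1 carried PACAP38 in Cy5 and array 2 carried it in Cy3, and the sign of array 2 was turned. Signals are the scanner software's processed signals in arbitrary units. Across probes they were used to compare brightness, to set bounds for dim probes and to form sums over a list. Of 41174 probes, 41164 had a value on both arrays, and 26254 (63.8%) were well above background in both groups on both arrays. Where a named gene had several probes, the brightest of them all stood for it, and for 15067 genes that probe was among the 26254. A probe was called higher or lower only when it passed over 1.5-fold or under 0.75-fold on each array by itself.

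The labelled tissue was checked against markers of brain cells. Of the markers of cortical projection neurons 21 of 21 were well above background, of striatal medium spiny neurons 21 of 21, of cortical interneurons 18 of 20, and of oligodendrocytes and myelin 22 of 23. Of the pituitary list 4 of 17 passed, and of the olfactory receptors 40 of 902.

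The 2 arrays disagreed over most probes. Their log2 ratios correlated at r = -0.56 across the 26254 probes, which share both arrays and are no replicates. The mean of the arrays had an SD of 0.127 over probes. The dye term (array 1 minus array 2, divided by 2), which cancels in their mean, had an SD of 0.238. The thresholds were passed upwards on 1 array and downwards on the other by 712 probes. The dye term alone lay over 1.5-fold for 75 probes and under 0.75-fold for 1522. In PMCAO at 24 h, whose files carry the same slide number, the dye term of the same probes followed that of the sham arrays (r = 0.87 over 25527 probes). The same correlation was 0.43 with the PMCAO arrays and -0.10 with the sham arrays at 6 h. A difference that is the same on both sham arrays is thus the smaller component of these data, and both arrays' values are given for the genes on which the results turn. Other genes are given by their mean. Every direction rests on the dyes in the sample titles. Without turning array 2, the 2 arrays would correlate at the same size with a positive sign, so if the dyes of an array were mislabelled the mean and the dye term would change places. The titles were not checked against a second source.

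**Figure D1:**
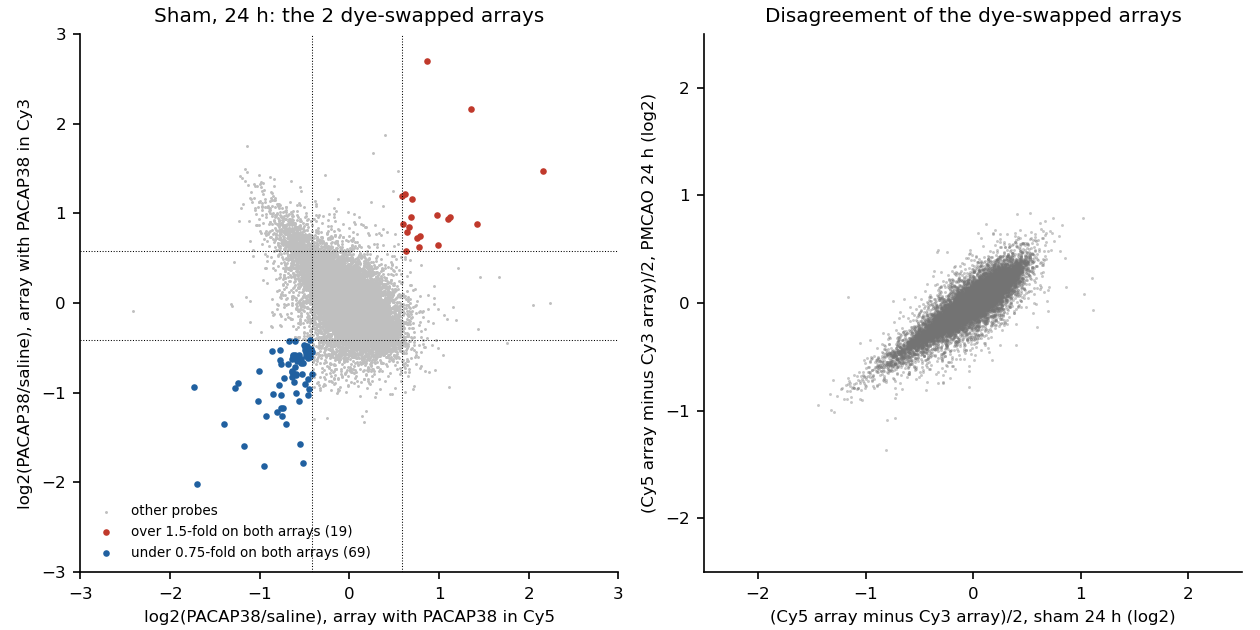
Left, log2 ratio (PACAP38 over saline) on array 1 (x axis) against array 2 (y axis) for the probes well above background, with the 19 probes called higher and the 69 called lower marked. Right, the dye term of the sham comparison (x axis) against that of PMCAO at 24 h (y axis), both in log2; the cloud on the left runs from upper left to lower right (r = -0.56) and the cloud on the right along the rising diagonal (r = 0.87).

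At these thresholds 19 probes were higher in the PACAP38 pool (0.0724% of 26254) and 69 were lower (0.263%). The 19 higher probes stood for 15 named genes and 4 probes without a symbol, and the 69 lower probes for 48 named genes and 20 probes without one. The median fold was 1.85 among the higher probes and 0.619 among the lower. Counted by the brightest probe of each gene, 9 of 15067 genes were higher (0.0597%) and 24 were lower (0.159%). Starting from the uncorrected spot means with normexp background correction and loess, 4 probes were higher and 31 lower. Most of the called probes were dim: 75 of the 88 lay below the median brightness of all probes well above background, with a median signal of 78.2 for the higher and 107 for the lower probes, against 535 for all. At the threshold, S100a9 passed with log2 ratios of 0.63 and 0.59 (1.5-fold being 0.58), and Eps8l1 did not pass with 1.46-fold and 1.58-fold. Map4k5 passed downwards with 0.738-fold and 0.749-fold, and Nfasc missed with 0.715-fold and 0.75-fold.

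The highest mean among the named genes called was that of S100a5, and Lcn2 and S100a9 were also higher in the PACAP38 pool. S100a5, an EF-hand protein abundant in olfactory sensory neurons, gave signals of 244 with PACAP38 and 54.7 with saline on array 1, and of 254 and 91.1 on array 2. Its log2 ratios were 2.16 and 1.48 (mean 1.82, 3.53-fold). Its probe lies at chr3:90741771-90741830 (mm7, plus strand), and the gene spans chr3:90606480-90611784 in GRCm38.p6. The first 30 bases of the probe are shown because S100a5 rests on this probe alone:
S100a5: aggagattgacttcaaggagtactctgtgt
The other olfactory bulb markers did not follow S100a5. Of 13 list members well above background, S100a5 was called and the other 12 lay between -0.15 and 0.19. Omp, which marks mature olfactory sensory neurons, and Eomes were not well above background. The summed signal of the 13 was 23252 with PACAP38 and 21293 with saline on array 1, and 23396 and 23046 on array 2. The part of left-over olfactory bulb in the S100a5 value was not tested.

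Lcn2, a siderophore-binding protein induced in astrocytes and released by neutrophils in inflammation, gave 45.3 and 21.1 on array 1 and 42.2 and 21.9 on array 2, for PACAP38 and saline. Its log2 ratios were 1.11 and 0.94 (2.03-fold). S100a9, a subunit of the neutrophil protein calprotectin, gave 1021 and 661 on array 1 and 981 and 654 on array 2, log2 ratios of 0.63 and 0.59 (1.52-fold). The ratios of S100a8, the partner subunit, were 1.21 and 0.39, above 0 on both arrays but under 1.5-fold on array 2, and it was not called. Lcn2 and S100a9 thus differed by nearly the same amount on both arrays, while S100a8 did not. Of the 17 neutrophil markers, 6 were well above background. Lcn2 and S100a9 were called, and Mmp9 (-0.05), Mpo (-0.08) and Prtn3 (-0.24), which encode granule enzymes, lay near or below 0. Outside these 6, Ltf, the granule protein lactotransferrin, was well above background with saline alone and was higher there by at least 1.54-fold (ratios -1.06 and -0.96). Mmp8, the neutrophil collagenase, had -0.69 and -1.04 at a mean log2 signal of 2.56. That is under the lowest log2 signals called well above background on these arrays, 3.59 to 4.24. Ltf thus lay in the opposite direction to Lcn2 and S100a9, and no direction is read from Mmp8. The summed signal of the 6 was 1275 with PACAP38 and 830 with saline on array 1, and 1208 and 841 on array 2. Most of each sum was S100a9 alone, with 1021 and 661 on array 1 and 981 and 654 on array 2. In a pool of whole tissue, fewer cells of a type and less RNA per cell cannot be told apart, and the part of neutrophil number in these values was not tested.

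Anp32a, which encodes a nuclear phosphoprotein, and Slc16a6, of the monocarboxylate transporter family, followed S100a5 in size. Anp32a had signals of 271 and 148 on array 1 and 777 and 120 on array 2, log2 ratios of 0.87 and 2.70 (3.44-fold). Slc16a6 had 120 and 46.8 on array 1 and 158 and 35.1 on array 2, log2 ratios of 1.35 and 2.17 (3.39-fold). Both genes differed by more on array 2 than on array 1. Ppp3r1, the calcium-binding regulatory subunit of the phosphatase calcineurin, gave 291 and 172, then 441 and 266, with log2 ratios of 0.76 and 0.73 (1.67-fold).

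The remaining higher genes among the first 12 were Wwox, an oxidoreductase with WW domains (1.42 and 0.88), and the long noncoding RNA 0610039H22Rik (1.12 and 0.96). Adamtsl3, a secreted matrix protein, had 0.97 and 0.99, and the homeobox factor Evx2 had 0.59 and 1.19. Scgb3a1, a secretoglobin, had 0.99 and 0.65, from signals of 238 and 120 on array 1 and 198 and 127 on array 2. Cpb2, a carboxypeptidase that slows fibrinolysis, had 0.79 and 0.75, and Lgr4, a receptor for R-spondins, had 0.67 and 0.85. Besides S100a9, the named genes that followed were the co-chaperone Dnajb8 (0.78 and 0.63) and the pseudogene Zfp422-ps (0.64 and 0.79). Of the first 12, Ppp3r1, Anp32a, Slc16a6 and S100a5 were also called from the normexp-corrected values, and the other 8 were not.

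Neuropeptides, a dopamine receptor and secreted immune mediators stood among the genes lower in the PACAP38 pool. Ucn encodes urocortin, a peptide of the corticotropin-releasing hormone family. Its signals were 160 with PACAP38 and 362 with saline on array 1, and 213 and 644 on array 2, log2 ratios of -1.18 and -1.59 (0.383-fold). Agrp, the appetite-stimulating peptide of the arcuate nucleus, gave 76.0 and 122 on array 1 and 79.2 and 127 on array 2, with -0.68 on both (0.624-fold). Of the 23 hypothalamic neuropeptide genes listed, 19 were well above background and Agrp was the only one called. Cartpt (-0.40 and -0.78), Ghrh (-0.20 and -0.51), Kiss1 (mean -0.30) and Gal (mean -0.23) had means below 0 without passing both arrays, and the list median was -0.03 against 0.0063 for all genes. The arcuate nucleus is a small part of the tissue ground, and the part of dissection in these values was not tested.

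**Figure D2:**
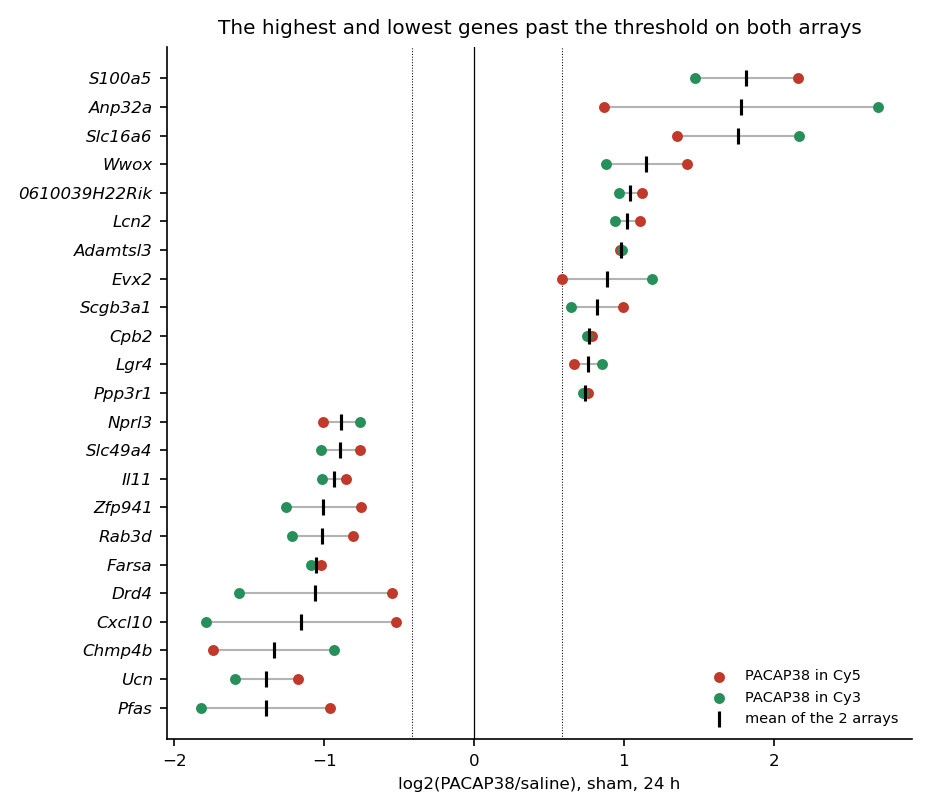
Log2 ratio (PACAP38 over saline, x axis) of the 12 highest genes called and the lowest genes described, with 1 point for each array and a mark at their mean. Both points of each gene lie on the same side of 0, and the distance between them is widest for Anp32a (0.87 and 2.70) among the higher genes.

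Ucn is shown with its promoter because the peptide's receptors signal through cyclic AMP and the 250 bases before its start hold the full cyclic AMP response element. The window is chr5:31138896-31139145 (GRCm38.p6, RefSeq, minus strand) with TGACGTCA in capitals, starting 44 bases before the start of the gene:
Ucn: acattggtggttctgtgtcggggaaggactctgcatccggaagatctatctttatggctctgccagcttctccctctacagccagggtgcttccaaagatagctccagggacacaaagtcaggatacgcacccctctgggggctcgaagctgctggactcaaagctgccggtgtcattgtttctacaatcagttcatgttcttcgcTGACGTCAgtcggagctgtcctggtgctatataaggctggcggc
The letters TGACGTCA, which read the same on both strands, occur in 439 of 27025 promoter windows of this length (1.62%) and in 311 of 11461 windows of genes well above background (2.71%). Among the genes called, they occur in 1 of 12 windows of higher genes (Cpb2) and in 2 of 34 windows of lower genes (Ucn and Meg3). The shorter letters TGACG, on either strand and including those inside the full element, occur in 17.9% of all windows, in 26.1% of those of genes well above background, in 5 of 12 higher and in 10 of 34 lower genes. Neither the full nor the shorter letters occur in the windows of S100a5, Il11, Cxcl10, Lcn2 or S100a9. A match describes the letters in the window and says nothing about binding.

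Drd4, a dopamine receptor coupled to inhibition of adenylyl cyclase, gave 201 with PACAP38 and 294 with saline on array 1, and 120 and 356 on array 2 (-0.55 and -1.57, 0.480-fold). Pfas, an enzyme of purine synthesis, gave 153 and 297, then 93.5 and 330 (-0.96 and -1.82, 0.382-fold). Chmp4b, a component of the membrane-remodelling ESCRT machinery, gave 1960 and 6537, then 1094 and 2094 (-1.74 and -0.94, 0.396-fold). The array with the larger difference was array 2 for Drd4 and Pfas and array 1 for Chmp4b. The phenylalanyl-tRNA synthetase subunit Farsa (-1.02 and -1.09), the secretory vesicle GTPase Rab3d (-0.81 and -1.22) and the zinc finger gene Zfp941 (-0.75 and -1.26) were also lower. Slc49a4, a lysosomal transporter (-0.76 and -1.02), and Nprl3, a subunit of an inhibitor of TOR signalling (-1.01 and -0.76), followed. The long noncoding RNAs Meg3 (-0.46 and -0.61) and Malat1 (-0.61 and -0.43), the nucleolar protein gene Ncl (-0.54 and -0.67) and the clathrin heavy chain gene Cltc (-0.57 and -0.58) were called lower as well.

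The 2 cytokine and chemokine genes that were called, Il11 and Cxcl10, were lower in the PACAP38 pool. Il11, a cytokine of the interleukin-6 family, gave 68.4 with PACAP38 and 124 with saline on array 1, and 71.5 and 144 on array 2 (-0.85 and -1.01, 0.523-fold). Of 37 interleukin genes listed, 12 were well above background, Il11 was the only one called, and the others lay between -0.11 and 0.13. Il6 and Tnf were not well above background, and Il1b was at -0.11. Cxcl10, an interferon-induced chemokine for T cells, gave 85.1 and 122, then 60.9 and 210 (-0.52 and -1.79, 0.449-fold). It was the only chemokine called of 20 well above background among 35 listed. Ccl2, which attracts monocytes, had a mean of -0.77, but with -0.25 on array 1 and -1.28 on array 2 it did not pass on both. Ccl12 (-0.48) and Ccl24 (-0.46) also had means below 0, and Ccl8 (0.88 and 0.09) had a mean above it. Thus Cxcl10 and Ccl2 differed far more on array 2 than on array 1. Of 27 interferon-stimulated genes well above background, Cxcl10 alone was called. Oasl1 (0.33) and Irf7 (-0.27) stood at opposite sides of 0, and the list median was -0.03, with 0.05 on array 1 and -0.12 on array 2.

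Timp1, which blocks matrix metalloproteinases, gave 574 with PACAP38 and 824 with saline on array 1, and 566 and 899 on array 2 (-0.52 and -0.67, 0.662-fold). It was the only gene with a second probe called (-0.42 and -0.52), and a further probe had -0.27 and -0.44. Plaur, the urokinase receptor, was at -0.48 and was not called. Of 32 metalloproteinases and inhibitors well above background, 0 were called higher, and the median was -0.01. In the complement list, with 20 members well above background and 0 called, Cfb of the alternative pathway was highest (0.52 and 0.49). In the TNF and NF-kB feedback list 0 of 16 were called, between -0.22 for Tnfaip2 and 0.10 for Tnfaip3.

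A second probe of the same gene was seldom called. Of the 88 called probes 64 had a symbol, and for 37 of these the gene had another probe well above background. In 2 of the 37, both of Timp1, another probe was also called. A probe that narrowly misses the threshold is not counted here. For the cytochrome P450 gene Cyp2a5, the called probe had a mean of -0.69 and the other -0.67 (-0.40 and -0.94). In 6 of the 37 the called probe was the brightest of its gene. For the remaining 27 no other probe was well above background. Anp32a, Slc16a6, Chmp4b and Farsa are shown, each with the probe that was called and the brightest that was not, as the first 30 bases of each probe in mm7. The called probe of Anp32a lies at chr9:62398847-62398906 and the other at chr9:62405090-62405149, both on the plus strand. Those of Slc16a6 lie at chr11:109560098-109560156 and chr11:109561785-109561844, both on the minus strand. Those of Chmp4b lie at chr2:154433442-154433501 and chr2:154435475-154435534, and those of Farsa at chr8:83452619-83452678 and chr8:83455019-83455078, all on the plus strand. The positions within exons or untranslated regions were not determined here.
Anp32a, called: cttaagcatctaaatttaagtggcaacaaa
Anp32a, not called: actgttctatttggttctgtaaaatattag
Slc16a6, called: ttgtactacgaatgttcgagacgatttaat
Slc16a6, not called: ctactatattataaagtgacatccagccca
Chmp4b, called: agaggagttggacaagaatttgttggagat
Chmp4b, not called: aagattgttagagttaattccagctatcca
Farsa, called: tcctcctgaatgctaagatggctgttacca
Farsa, not called: gtgggccacaaggtgaacctgcagatggta

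The called Anp32a probe had a mean of 1.78 and the other 0.09. For Slc16a6 the means were 1.76 and -0.16, so the 2 probes lay on opposite sides of 0. For Chmp4b they were -1.34 and -0.61, the latter from -0.40 and -0.82, on the same side on both arrays. The 2 other Farsa probes had -0.17 and -0.16 against -1.05, the other Rab3d probe -0.07 against -1.01, the other Lgr4 probes 0.10 and 0.11 against 0.76, and the other Ppp3r1 probes 0.12 and 0.17 against 0.74. For these genes other than Chmp4b, the uncalled probes given here lay between -0.17 and 0.17.

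**Figure D3:**
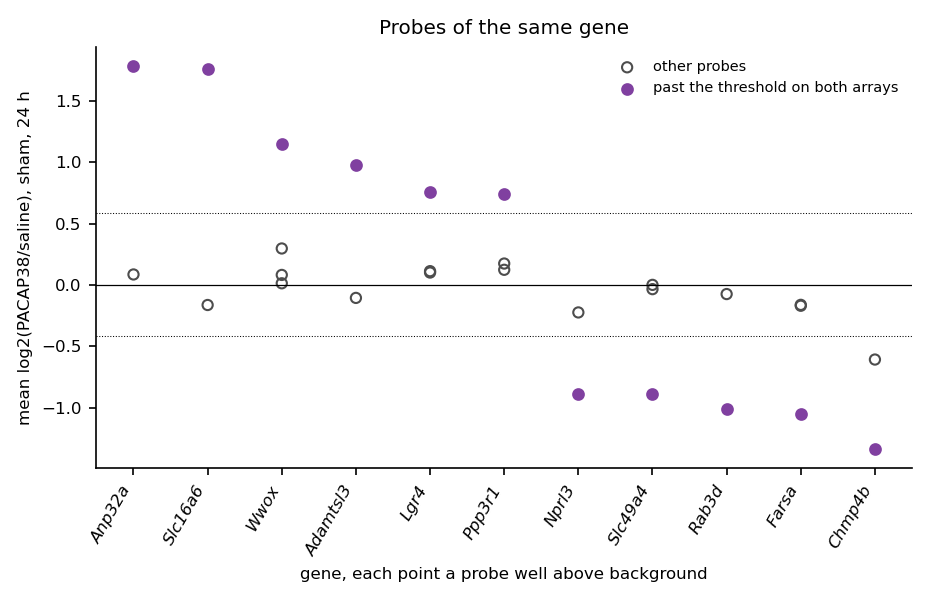
Mean log2 ratio (PACAP38 over saline, y axis) of every probe well above background for those of the highest and lowest genes described that have several such probes (x axis), with called probes filled, uncalled probes open and dotted lines at the thresholds. The called probes of Anp32a, Slc16a6 and Farsa stand far from the others of the same gene, while the uncalled Chmp4b probe (-0.61) lies on the same side as the called one (-1.34).

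Some probes were well above background in a single group on both arrays, and their folds are bounds against the lowest signal that was well above background. There were 5 such probes for PACAP38 and 102 for saline, of which 5 and 86 gave a bound over 1. Higher in the PACAP38 pool were Dlec1 by at least 3.92-fold, Cga, the alpha subunit of the pituitary glycoprotein hormones, by at least 2.94-fold, Chp2 by at least 1.60-fold and Erv3 by at least 1.45-fold. The Dlec1 ratios of 3.30 and 0.86 differed more between the arrays than those of Cga, 2.68 and 2.62. Higher in the saline pool were the keratin Krt75 by at least 5.57-fold (ratios -3.01 and -3.23), B230206H07Rik by at least 3.35-fold (-1.80 and -2.85), the pituitary hormone prolactin, Prl, by at least 2.42-fold (-3.48 and -3.57) and the aminopeptidase Xpnpep3 by at least 1.94-fold. The pituitary genes thus differed in opposite directions. Of 17 pituitary genes listed, 4 were well above background in both groups and 0 of these were called, with Pomc lowest at -0.26 and Lhb highest at 0.13.

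The peptide's own family and its signalling route are described next. With 0.0597% of all genes called higher and 0.159% lower, a count of 0 in lists of this size is near the background. Of 13 genes of PACAP, VIP, related peptides and their receptors, 7 were well above background and 0 were called. Adcyap1, which encodes PACAP itself, was at 0.01 (0.02 and -0.01), and the PAC1 receptor gene Adcyap1r1 at -0.05 (-0.11 and 0.02). Vip was at 0.02 (0.22 and -0.19) and Vipr1 at 0.07. The largest value of the family was that of secretin, Sct, with signals of 102 and 135 on array 1 and 104 and 173 on array 2, log2 ratios of -0.40 and -0.74. It was below 0 on both arrays and did not reach 0.75-fold on array 1. Ghrh was at -0.36 and Gipr at -0.20 (-0.44 and 0.04). Gcg, Ghrhr, Gip, Glp1r, Sctr and Vipr2 were not well above background in both groups. Of 41 genes of cyclic AMP signalling (adenylyl cyclases, phosphodiesterases, kinase subunits and exchange factors) 40 were well above background, 0 were called, the median was 0.02 and all lay between -0.14 for Pde1b and 0.19 for Rapgef4.

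Activity-induced and CREB target genes lay above 0 more often than below. Of 33 listed, 30 were well above background and 0 were called. The median was 0.12 against 0.0063 over all 15067 genes. On both arrays 12 of the 30 were above 0 and 6 below, against 12.6% and 12.0% of all genes. Egr2 was highest (0.56 and 0.37), followed by the nuclear receptor Nr4a1 (0.50 and 0.36). The means of both lay above the 95th percentile of all genes, which was 0.16. Fos (0.81 and -0.10) had opposite signs on the arrays. Junb (mean 0.35), Egr1 (0.33), the phosphatase Dusp6 (0.32) and Arc (0.27 on both arrays) lay above 0, and Inhba, the activin subunit, was lowest at -0.47. In the other comparisons, on other mice, the list median was 0.006 at 6 h in sham mice. After PMCAO the list median was 0.50 at 6 h and -0.63 at 24 h. Among neurotrophins and their receptors 0 of 12 were called, between -0.40 for Ntf5 and 0.23 for Ntf3. Of the glucocorticoid-induced genes 0 of 16 were called, between -0.23 for Hif3a and 0.23 for Per1.

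Among lists with at least 10 genes well above background, those of the choroid plexus and of microglia had the medians farthest from that of all genes. Of 21 choroid plexus genes well above background 0 were called, and 18 had a mean below 0. Their median was -0.16, with quartiles at -0.20 and -0.12, between -0.26 for Steap1 and 0.04 for Igf2. Ttr, the transthyretin gene that choroid plexus epithelium expresses at a high level, was at -0.16. On both arrays 8 were below 0 and 0 above. The array medians were -0.07 and -0.30, and the summed signals 46848 with PACAP38 and 47810 with saline on array 1, and 44209 and 50726 on array 2. In the other comparisons, on other mice, the list median was -0.14 at 6 h in sham mice, and after PMCAO -0.07 at 6 h and -0.11 at 24 h. The choroid plexus lies in the ventricles, and the part of its share in the dissected tissue was not tested.

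Of 27 microglial and macrophage genes well above background 0 were called, and 23 had a mean above 0, with a median of 0.13 and quartiles at 0.07 and 0.21. On both arrays 13 were above 0 and 0 below. Fcrls (0.28), Aif1 (0.26) and Siglech (0.26) were highest, and P2ry13 (-0.05) lowest. The array medians were 0.20 and 0.05. The summed signal was 89162 with PACAP38 and 74057 with saline on array 1, and 84703 and 83807 on array 2, so most of the difference lay on array 1. In the other comparisons the list median was below 0, with -0.08 at 6 h in sham mice, and after PMCAO -0.05 at 6 h and -0.15 at 24 h. In both lists the medians on the 2 arrays differed by more than the smaller of them.

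**Figure D4:**
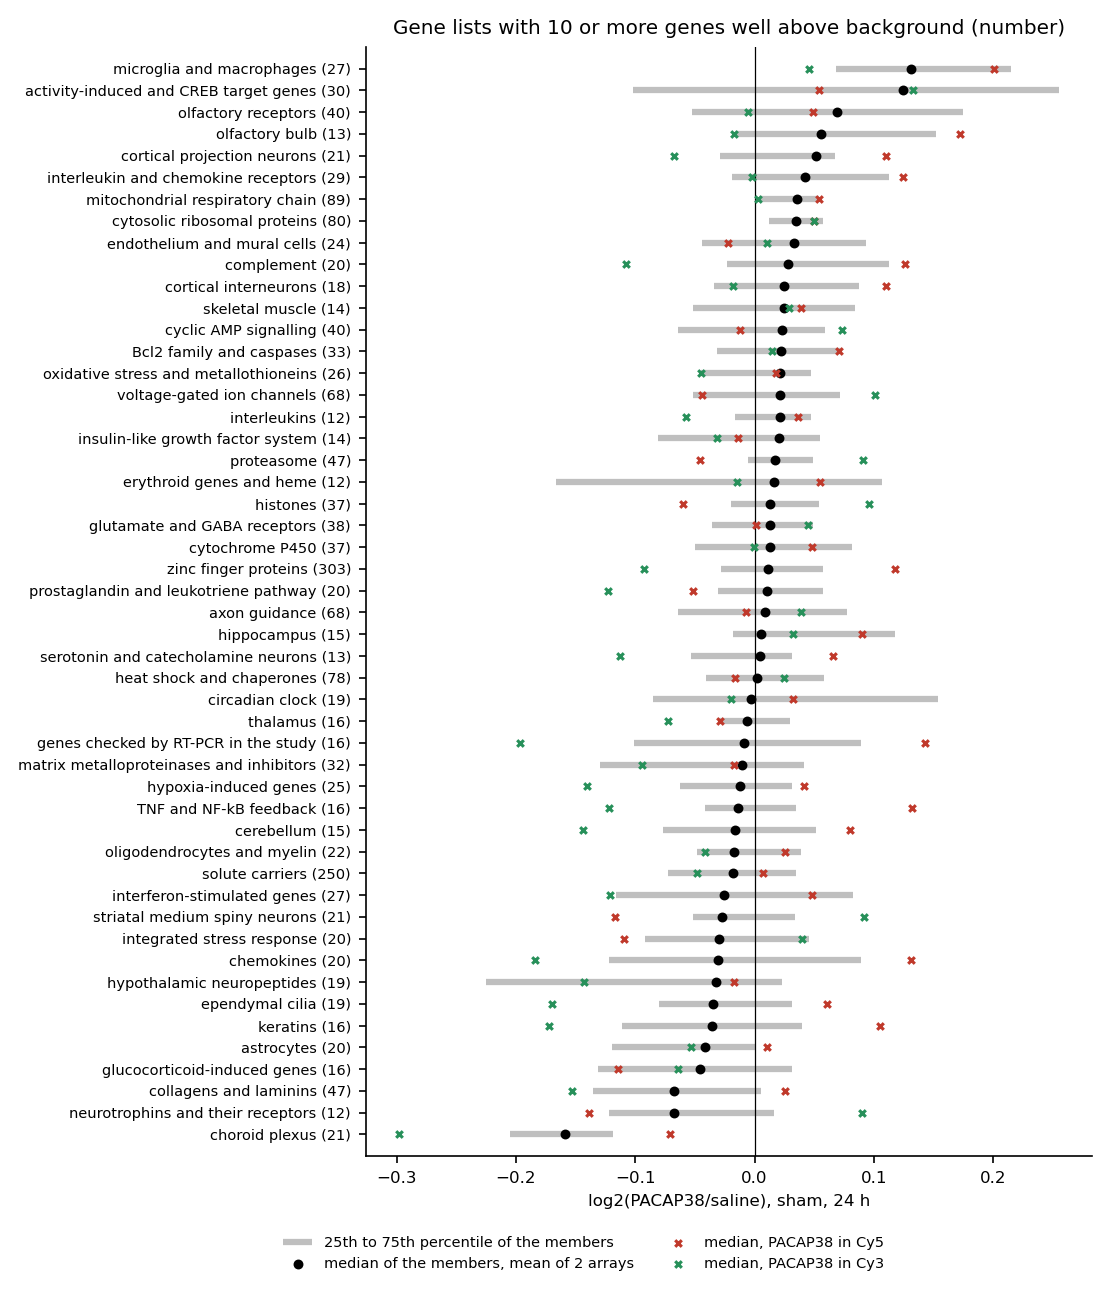
Median log2 ratio (PACAP38 over saline, x axis) of each gene list with at least 10 genes well above background (y axis), with bars for the quartiles over genes and separate marks for the medians on each array. The choroid plexus list (-0.16) lies farthest below 0 and the microglial list (0.13) farthest above, and the 2 array medians lie apart for most lists.

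The other cell type lists stood near the median of all genes. Astrocyte markers (20 well above background, median -0.04) held Lcn2, higher, and Timp1, lower. The remaining astrocyte genes lay between -0.21 for Gfap and 0.11. Oligodendrocyte and myelin genes lay between -0.13 and 0.10, cortical interneuron genes between -0.10 and 0.16, and cortical projection neuron genes between -0.18 and 0.17, with 0 called in each. Endothelial and mural cell genes lay between -0.20 for the smooth muscle actin Acta2 and 0.33 for the tight junction protein Cldn5, with 0 of 24 called. Cldn5 had -0.02 on array 1 and 0.69 on array 2. Of the collagens and laminins 34 of 47 were below 0, 13 of them on both arrays (12.0% of all genes were) against 0 above on both, with 0 called. The median was -0.07, but the array medians were 0.03 and -0.15, on opposite sides of 0.

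Large families differed in their spread. The 80 cytosolic ribosomal protein genes had a median of 0.03 with 0 called, between -0.12 and 0.35 (Rpl39l). Rpl39l had opposite signs on the arrays (0.93 and -0.23). The 47 proteasome genes lay between -0.08 and 0.15. Among 78 heat shock and chaperone genes only Dnajb8 was called, and Hspb1 was lowest at -0.35. By their brightest probes, Zfp941 was the only one called of 303 zinc finger genes, and 0 were called of 250 solute carrier genes. Slc8a2 was the lowest solute carrier at -0.67, with -1.32 on array 1 and -0.02 on array 2. Of 68 voltage-gated ion channel genes 0 were called, between -0.24 for Kcnh6 and 0.32 for Kcnh7, and of 38 glutamate and GABA receptor genes 0, between -0.19 and 0.13. Of 25 hypoxia-induced genes 0 were called, with the carbonic anhydrase Car9 lowest at -0.45.

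A list of 23 genes taken from the RT-PCR experiments had 16 members well above background in both groups. S100a5 was higher and Il11 lower. Ccl2 was at -0.77, Tph2 at -0.10, Slc6a4 at -0.01 and the reference gene Actb at 0.11 (-0.22 and 0.44). Gabra6, Cxcl2, Cxcr2, Fgf21, Il6, Mmp8 and Tnf were not well above background in both groups. The RT-PCR genes were picked from these samples, so they are no independent evidence of direction.

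The other 3 comparisons used other mice and are set beside these values without a test. At the same thresholds PMCAO at 24 h had 139 probes higher (0.534% of 26033) and 1037 lower (3.98%), PMCAO at 6 h 113 (0.48% of 23562) and 232 (0.985%), and sham at 6 h 25 (0.127% of 19617) and 88 (0.449%). Of the 69 probes lower in sham at 24 h, 62 were well above background in PMCAO at 24 h. There 29 were called lower as well, which is 42.0% of the 69 and 2.80% of the 1037, and 0 were called higher. The same sign on both PMCAO arrays was found for 47 of the 62, against 21.8% of all probes well above background there. Of the 19 higher probes, 17 were well above background in PMCAO at 24 h and 3 were called lower there. The same sign on both PMCAO arrays was found for 5 of the 17, against 34.8% of all probes well above background there. Called higher in PMCAO at 24 h were 2 of the 19, those of Anp32a (1.78 in sham and 1.88 in PMCAO) and Slc16a6 (1.76 and 1.78). The Chmp4b probe had -1.34 and -1.37. These 3 probes thus had similar values in sham and PMCAO, in comparisons whose files share a slide number, and the part of the slide was not tested.

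Il11 and Timp1 were called lower in both comparisons at 24 h. Il11 had -0.93 in sham and -2.43 in PMCAO, and Timp1 -0.59 and -1.69. Drd4 had -1.06 and -1.52, Ucn -1.39 and -0.73, and Pfas -1.39 and -0.75. The size was greater in PMCAO for Il11, Timp1 and Drd4 and greater in sham for Ucn and Pfas, with no test of the difference. S100a5, Lcn2 and S100a9 were higher in sham and lower in PMCAO at 24 h. At 6 h in sham mice, 7 of the 19 higher and 48 of the 69 lower probes were well above background. Of the 7 only Evx2 was called higher, and of the 48, 0 were called lower and Timp1 was called higher. Of the 7, 4 had the same sign on both arrays against 22.8% of all such probes, and of the 48, 14 against 24.4%. S100a5 had 4.26 and 0.82 there without being well above background in both groups on both arrays. In PMCAO at 6 h, 10 of the 19 higher and 52 of the 69 lower probes were well above background. Of the 10, 1 (S100a5) was called higher and 1 (Scgb3a1) lower. Of the 52, 4 were called lower and 4 higher. The same sign on both arrays was found for 2 of the 10, against 25.6%, and 18 of the 52, against 28.1%.

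**Figure D5:**
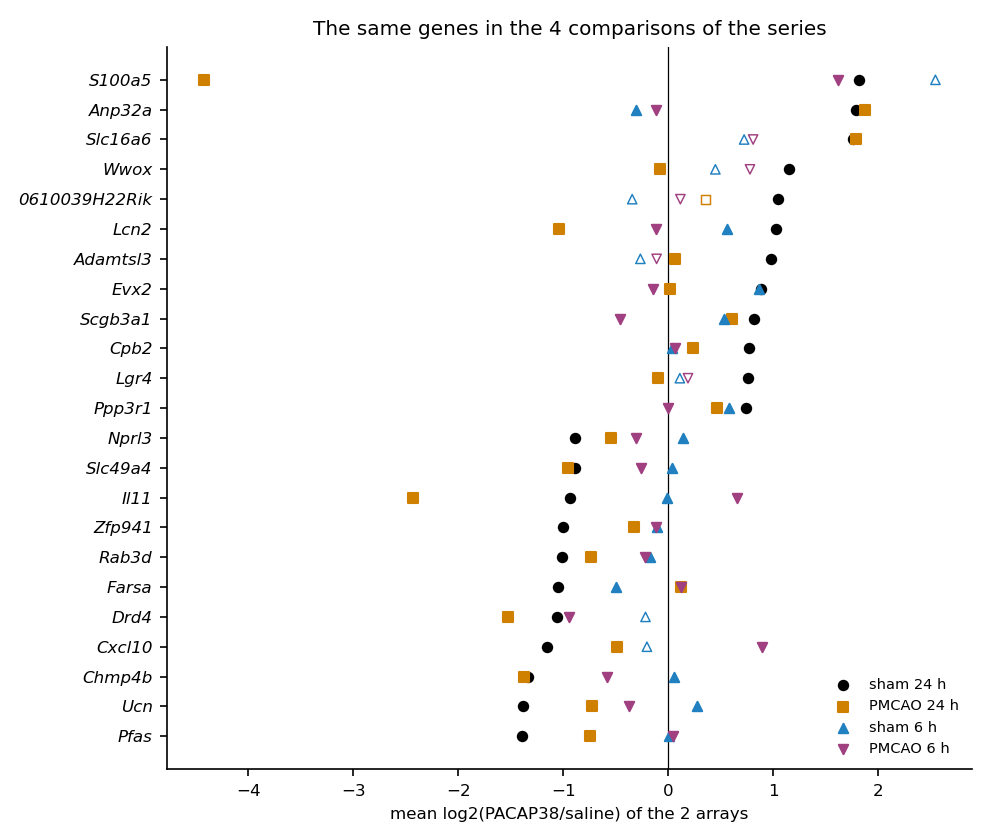
Mean log2 ratio (PACAP38 over saline, x axis) of the highest and lowest genes described (y axis) in each of the 4 comparisons, marked by shape and colour, with filled points where the probe was well above background in both groups on both arrays and open points where it was not. S100a5 lies at 1.82 in sham at 24 h and at -4.42 in PMCAO at 24 h, while Anp32a (1.78 and 1.88) has nearly the same value in both.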

How the data were processed

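Each comparison was hybridised on 2 Agilent mouse arrays with the dyes swapped. Per the labels the arrays were read with Feature Extraction 9.5.3.1. In the files as deposited by the authors, mean and background signals and processed signals are intensities, the ratio of Cy5 to Cy3 is a log10 ratio, the ratio's own error model gives a p-value per spot, and flags for outliers, saturation and background are given as scores of 0 or 1. The deposited value tables hold a ratio that equals the ratio of the processed signals within 0.005. Control spots and outlier-flagged spots (0.385% and 0.429%) were left out, spots of a probe were averaged, values were turned to log2 of PACAP38 over saline, and both arrays were averaged. A second copy of each array's file held the same values. The number of arrays limits the precision, and the same pools were labelled with each dye (1 independent replicate), so no test was run.

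Probes were named through RefSeq tables of mouse GRCm38.p6: 23082 by accession, 6582 by symbol and 3073 by synonym, 1866 kept the file's name, and 6571 have none. Probe coordinates are those of the files (mm7); promoters come from RefSeq. Named genes were the 12 highest and 12 lowest genes called, up to 4 in each direction by bound, members of lists that were called or else the highest and lowest, all of the PACAP and VIP list, and the genes checked by RT-PCR. The members and lists were chosen with earlier results of these data known. Genes outside this rule (S100a8, Cartpt, Plaur, Ccl12, Ncl, Meg3 and others) were named after their values were seen. Some items that the rule selects are not reported here. Bounds used loess and Aquantile normalization of the processed signals in limma 3.58.1 (R 4.3.3). In the dim group each array's signal was raised, where it lay lower, to the lowest signal called well above background. Alternatives were normexp background correction (offset 50) with loess, the deposited ratios, each array alone, outliers kept, centring, no filter or a looser filter on dim probes, other thresholds, the mean in place of each array, removal of the dye term of PMCAO at 24 h, the software's p under 0.01, and 1 probe per gene. The counting code was tested on simulated data. Computation used Python 3.11.15, pandas 2.3.3, numpy 2.4.6 and matplotlib 3.10.9.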

Additional observations from a re-analysis of the deposited data

Results flagged for a closer look

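For 5 genes both arrays of the sham comparison at 24 h passed the threshold in 1 direction and both arrays of another comparison passed it in the opposite direction. The difference between the comparisons was not tested, and each comparison rests on 1 pool per group. S100a5, at 1.82 in sham at 24 h, was at -4.42 in PMCAO at 24 h. Lcn2, at 1.02 in sham, was at -1.04 in PMCAO at 24 h, and S100a9, at 0.61, was at -3.08 there. Scgb3a1, at 0.82 in sham at 24 h, was at -0.46 in PMCAO at 6 h. Timp1, at -0.59 in sham at 24 h, was at 0.86 in sham at 6 h. S100a9 and Lcn2 are neutrophil and acute phase genes, and Timp1 encodes an inhibitor of matrix metalloproteinases.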

How the results depend on the processing

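The counts of 19 higher and 69 lower probes changed with the background correction and with the filters. With normexp and loess they were 4 and 31, and 4 and 30 of these were among the 19 and 69. Without a filter on dim probes they were 93 and 367. With a probe well above background in at least 1 group 123 were lower, with 1.5-fold in either direction 34 were lower, and with 2-fold 2 and 4 remained. With thresholds on the mean they were 36 and 219, and 34 and 209 where both arrays had its direction. With the software's p under 0.01 on both arrays 33 of the lower probes were kept, and with the dye term of PMCAO at 24 h taken off 106 were lower. Counted by the brightest probe of each gene they were 9 and 24. Each array alone gave 205 to 899 higher and 1214 to 1660 lower. The counts kept within 1.5 times in the other settings run. Of the 88 calls, 4 higher (S100a5, Anp32a, Slc16a6 and Ppp3r1) and 24 lower were also made under normexp, dye term removal and the software's p together. Of the 12 highest genes, normexp lost Wwox, 0610039H22Rik, Lcn2, Adamtsl3, Evx2, Scgb3a1, Cpb2 and Lgr4, and of the 12 lowest it lost Cxcl10 and Rab3d. The software's p lost Wwox, Evx2 and Cxcl10. The cause of these changes was not tested. No probe called on both arrays can change direction on an array alone, but uncalled values and list medians can, such as Per1 (-0.49 on array 1 against a mean of 0.23) and the collagens and laminins (0.03 against -0.07). The choroid plexus and microglial medians kept their signs, with -0.30 to -0.07 and 0.05 to 0.20 for single arrays. With only probes brighter than the median, an alternative chosen after seeing the data, they were -0.16 and 0.14. No paired analysis was possible because the 2 arrays of a comparison hold the same 2 pools and the replicate numbers mark dye orientation only. Dim signals limit most calls, since 75 of the 88 probes lay below the median brightness.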

Other observations

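The lowest value of all called probes belonged to a probe without a gene symbol, A_51_P496735, at chr14:33011171-33011230 (mm7, plus strand). Its log2 ratios were -1.70 and -2.02 (0.275-fold), and in PMCAO at 24 h its mean was -1.70. A further unnamed probe, A_52_P604130, at chr19:28719367-28719426 (plus strand), had -1.39 and -1.35 (0.386-fold). They are shown by their first 30 bases because no gene name identifies them here.
A_51_P496735: aagatgacttagtttctttggtatatcatg
A_52_P604130: cctgattcccctctataatgggtgttactg
The mitochondrial respiratory chain genes lay slightly above 0, with a median of 0.04 over 89 genes and 0 called, and 19 of them below 0. The clock genes ranged from -0.27 for Ciart to 0.23 for Per1, with 0 of 19 called. In the axon guidance list Ntng2 was highest at 0.46, and in the hippocampal list Tdo2, an enzyme of tryptophan breakdown, was highest at 0.49, and 0 members of either were called.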
